A study of Mus musculus with 8 samples.

Results

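Nuclear factor I proteins are transcription factors encoded by Nfia, Nfib, Nfic and Nfix. The accessible chromatin around these 4 genes was examined in splenic regulatory T (Treg) cells labelled as knockout for Flcn, the folliculin gene (Flcn KO), and in wild-type (WT) Treg cells. The members are the ATAC-seq peaks whose nearest protein-coding gene is one of the 4, at most 50 kb from the gene span, which gave 45 of the 57199 peaks in the table. The rule itself uses position only, but the family was chosen by the fold change between Flcn KO and WT, because several Nfia peaks were already known to be less accessible in Flcn KO. The differences between genotypes at its peaks are therefore a description of these libraries. The adjusted p-values beside them say which peaks were called and are not independent support.

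ATAC-seq marks open DNA by the adapters that a transposase inserts into it. The Flcn KO group held 4 libraries of Treg cells from Foxp3CreFlcnfl/fl chimeras, in which Cre driven by Foxp3 is meant to delete the floxed Flcn gene in cells that express Foxp3. The WT group held 4 libraries from WT chimeras. All 8 came from the spleens of mixed bone-marrow chimeras, mice that carry blood cells grown from a mixture of marrows, and the cells of both genotypes were CD45.2+CD45.1- and CD4+ and carried a Foxp3-YFP reporter. The labels call the libraries biological replicates but do not say whether one pools animals, and give neither the age of the animals nor the exons that Cre removes. Nor do they say whether the WT donors carried Cre driven by Foxp3, so whether the groups also differ in Cre is not known.

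Proteins of this family bind as dimers to the palindrome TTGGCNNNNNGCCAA, or more weakly to a single TTGGC arm, and can act as activators or repressors. They are known above all from development: Nfia and Nfib in the formation of glia and of the corpus callosum, Nfib also in lung maturation, Nfic in the growth of tooth roots, and Nfix in muscle and in the maintenance of blood stem cells. In human blood progenitors, NFIA is also known from the choice between erythroid and granulocytic fates. Treg cells, which depend on Foxp3, restrain immune responses. Folliculin acts at the lysosome in nutrient signalling to mTORC1 and restrains the transcription factors TFEB and TFE3.

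The libraries held 2723344 to 5111728 counts in Flcn KO and 3986331 to 4914976 in WT. Of the 57199 peaks, 47859 passed the filter on low counts and were tested. At Flcn itself the first of 2 tested peaks had 12.1, 15.0, 10.4 and 16.8 CPM in Flcn KO replicates 1 to 4, against 12.5, 13.8, 18.9 and 20.2 CPM in WT. The second had 7.04, 7.48, 2.98 and 6.86 CPM in Flcn KO and 7.89, 6.25, 13.3 and 8.86 CPM in WT. The groups overlapped at both, and as the deleted exons are not given these peaks do not check the genotype. All 8 genes on the Treg marker list (Foxp3, Il2ra, Ctla4, Ikzf2, Ikzf4, Tnfrsf18, Cd3e and Cd4) had peaks. Their summed level was 1369 to 1588 CPM in Flcn KO and 1335 to 1451 CPM in WT. Cd3e and Cd4 on this list are shared with other CD4+ T cells. CPM are counts per 1000000 counts of the library size after TMM scaling, a correction for differences in composition between libraries. Flcn KO replicate 1 and WT replicate 2 stand apart at the peaks called lower in Flcn KO across the genome. Flcn KO replicate 1 was the highest of the Flcn KO libraries at 52.6% of these 489 peaks, against 26.2% of all tested peaks. WT replicate 2 was the highest of the WT libraries at 62.8% of them, against 25.3% of all tested peaks. The calls at Nfia are therefore also given without each of them.

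The 45 peaks were spread unevenly over the family. Nfia (gene ID 18027), on chromosome 4 at 97578066 to 98118876 (mm10), is 540.8 kb long and held 32 peaks, 28 of them inside the gene. Only 17 of 13334 genes with a tested peak had more tested peaks than its 31. Nfib (gene ID 18028), on chromosome 4 at 82290173 to 82506751, is 216.6 kb long and held 1 peak, which lay outside the gene. Nfic (gene ID 18029), on chromosome 10 at 81396191 to 81431919, held 6 peaks over 35.7 kb, 4 inside the gene and 2 upstream of it, since the gene is read from the minus strand. Nfix (gene ID 18032), on chromosome 8 at 84704712 to 84801238, held 6 peaks over 96.5 kb, all inside the gene. Exon positions were not used here, so peaks inside a gene are not placed in exons or introns. Of the 45 peaks, 40 passed the filter, namely 31 of Nfia, 1 of Nfib, 4 of Nfic and 4 of Nfix.

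Over the peaks inside each gene, the summed level per kb of gene span was 1.004 CPM per kb in Flcn KO and 1.02 CPM per kb in WT at Nfia. Nfix had 0.495 CPM per kb in Flcn KO and 0.464 CPM per kb in WT, and Nfic had 0.3604 CPM per kb in Flcn KO and 0.418 CPM per kb in WT. Nfib had no peak inside the gene. The order depends on the peaks counted: with the peaks outside the span included, Nfic came first, at 2.06 CPM per kb in Flcn KO and 2.13 CPM per kb in WT, because its 2 strongest peaks lie upstream of the span. Nfia then had 1.07 CPM per kb in Flcn KO and 1.09 CPM per kb in WT, and Nfib 0.0118 CPM per kb in Flcn KO and 0.0147 CPM per kb in WT. The strongest Nfia peaks, 436 bp each and 618 bp apart, start at 97772116 and 97773170. The peak at 97773170 had 103, 115, 109 and 118 CPM in Flcn KO replicates 1 to 4 and 108, 100.4, 98.9 and 103 CPM in WT, higher than 97.2% of tested peaks. The groups overlapped there, with a log2 fold change of 0.12 (SE 0.10). Its neighbour averaged 107 CPM in Flcn KO and 104 CPM in WT, also with overlapping groups.

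**Figure D1:**
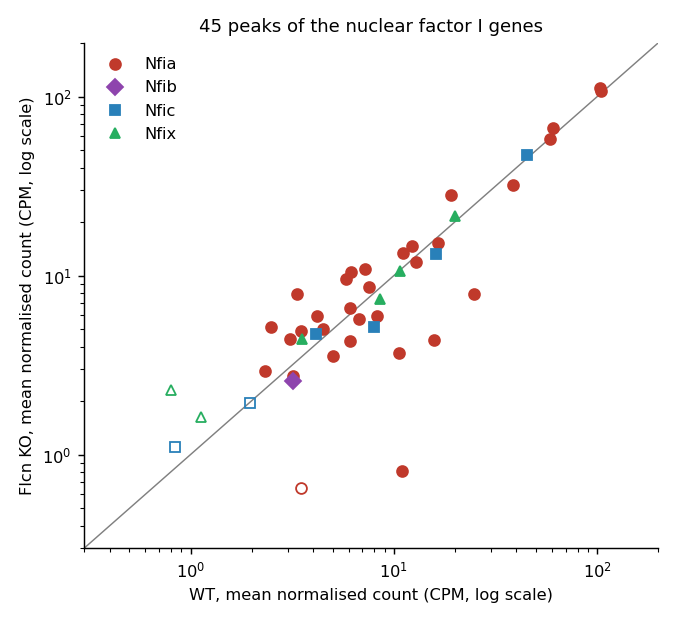
Mean normalised count of the 45 peaks of Nfia, Nfib, Nfic and Nfix in Flcn KO (y axis) and WT (x axis), in CPM on log scales, n = 4 libraries each. Filled symbols passed the filter on low counts and open symbols did not. Most peaks lie along the line of equal level, and a few Nfia peaks lie well below it.

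No member peak overlapped a start site that the RefSeq list used here gives for Nfia, Nfic or Nfix. Nfib was not in that list and was not checked. The windows from 250 bases before to 50 after each listed start were compared with the peaks for Nfia, Nfic and Nfix. The nearest member peak lay 12.3 kb from the listed Nfia start, 5.70 kb from that of Nfic and 19.4 kb from the nearest of 4 listed Nfix starts. Over all protein-coding genes in that list, 49.9% had a peak at a listed start. The strongest Nfic peak lay upstream of the listed Nfic start, 953 bp before the 5′ end of the gene span. The gene spans reach beyond the listed starts at their 5′ ends. Nfix is also read from the minus strand, so its span has its 5′ end at 84801238. The Nfix peak at 84800183 to 84800586 lies inside the span close to that end. A window of each gene is shown because no peak overlapped it, for Nfix the one of 4 with the most TTGGC arms, with each TTGGC arm, on either strand, in capitals. They were taken from RefSeq, build GRCm38.p6: Nfia at chr4:97581693-97581992 on the plus strand, Nfic at chr10:81427124-81427423 on the minus strand, and Nfix at chr8:84772826-84773125 on the minus strand.
Nfia: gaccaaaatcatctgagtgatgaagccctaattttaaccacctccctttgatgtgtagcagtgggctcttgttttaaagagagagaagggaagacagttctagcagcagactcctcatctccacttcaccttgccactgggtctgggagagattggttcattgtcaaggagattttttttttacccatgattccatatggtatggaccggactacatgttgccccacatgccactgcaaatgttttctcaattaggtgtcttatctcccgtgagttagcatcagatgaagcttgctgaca
Nfic: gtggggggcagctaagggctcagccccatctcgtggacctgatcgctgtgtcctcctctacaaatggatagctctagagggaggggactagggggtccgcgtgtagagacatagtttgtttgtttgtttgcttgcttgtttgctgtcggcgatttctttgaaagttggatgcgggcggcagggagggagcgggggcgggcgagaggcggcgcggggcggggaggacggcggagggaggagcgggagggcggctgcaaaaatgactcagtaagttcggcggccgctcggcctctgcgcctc
Nfix: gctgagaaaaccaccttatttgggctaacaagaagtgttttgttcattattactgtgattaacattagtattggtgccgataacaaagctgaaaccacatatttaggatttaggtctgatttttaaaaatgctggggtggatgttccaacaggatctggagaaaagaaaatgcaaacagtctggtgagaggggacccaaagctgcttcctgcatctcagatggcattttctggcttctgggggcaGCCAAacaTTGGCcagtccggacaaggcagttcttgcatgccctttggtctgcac
The Nfia window is 44.7% GC with 2 CG dinucleotides. Start windows without a peak had a median of 50.3% GC and 4 CG dinucleotides, and windows with a peak had 62.0% and 22. The Nfia values thus lie below the medians of windows without a peak, and those of the Nfic window, at 63.0% GC and 24 CG dinucleotides, lie above the medians of windows with one. The TTGGC arm was found in neither of them, and the Nfix window holds an arm on each strand at its start site, while the other Nfix windows hold 0, 1 and 1. An arm occurs in 47.9% of the 21263 windows of protein-coding genes. The palindrome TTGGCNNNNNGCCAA, which occurs in 0.0329% of windows, and the CACGTG letters known to be bound by TFE3 and other basic helix-loop-helix factors, which occur in 7.84%, were in none of the windows listed for Nfia, Nfic and Nfix. These matches describe the letters only.

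In Flcn KO cells 4 neighbouring Nfia peaks were called less accessible than in WT cells, and no change was called at any other peak of the family. Values are log2 ratios of Flcn KO over WT, so a negative one means lower in Flcn KO. Nfia had 4 of 31 tested peaks called lower and 0 called higher. Nfib had 0 of 1, Nfic 0 of 4 and Nfix 0 of 4 called in either direction (edgeR quasi-likelihood test, adjusted p below 0.05). Over all tested peaks, 2.37% were called, 1.02% lower and 1.35% higher. Among the 40 tested member peaks, the libraries of both genotypes did not overlap at 3 peaks lower and 2 higher in Flcn KO, all of Nfia, against 3.56% lower and 4.03% higher over all tested peaks. Because the family was chosen with this contrast known, nothing is read from these shares. With no adjustment, 6 Nfia peaks had p below 0.05 and were higher and 4 lower, and 0 peaks of Nfib, Nfic or Nfix passed in either direction. Over all tested peaks 6.87% passed higher and 5.99% lower. DESeq2 and limma-voom called the same numbers at every member.

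The called peaks lie in the middle of the gene, 272.8 to 303.6 kb downstream of the listed start. The first, at 97854792 to 97855240, had 7.43, 3.74, 0.497 and 3.05 CPM in Flcn KO replicates 1 to 4, against 12.0, 13.8, 6.12 and 10.3 CPM in WT. Flcn KO replicate 1 lay above WT replicate 3, so the groups overlapped at this peak. Its log2 ratio was -1.46 (SE 0.40; quasi-likelihood adjusted p = 0.0490). This is the weakest of the calls, as it ended in 6 of the 8 fits that left out a library: without Flcn KO replicate 2, 3 or 4 (adjusted p = 0.144, 0.111 and 0.135) or WT replicate 1, 2 or 4 (0.126, 0.177 and 0.103). Without Flcn KO replicate 1 its log2 fold change was -2.17 (adjusted p = 0.000462).

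The second called peak, at 97860860 to 97861334, was the strongest of the group in WT. It had 14.1, 6.41, 3.48 and 7.62 CPM in Flcn KO replicates 1 to 4, against 24.9, 31.2, 19.4 and 23.1 CPM in WT. Each of the Flcn KO libraries lay below the WT libraries. The means were 7.90 ± 4.47 CPM in Flcn KO and 24.7 ± 4.95 CPM in WT (SD, n = 4 each), a log2 ratio of -1.60 (SE 0.27; quasi-likelihood adjusted p = 0.000457). The next called peak, at 97871603 to 97872045, had 8.21, 2.67, 1.99 and 4.57 CPM in Flcn KO replicates 1 to 4, against 19.9, 24.1, 10.2 and 8.86 CPM in WT. The groups did not overlap there either, although Flcn KO replicate 1 came within 1 CPM of WT replicate 4. The log2 ratio was -1.81 (SE 0.37, adjusted p = 0.00481).

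The last called peak, at 97885543 to 97886055, showed the largest fold change in the family, from a low level in Flcn KO. In CPM the means at 97860860 lay further apart. It held 10, 2, 0 and 2 counts in Flcn KO replicates 1 to 4, against 48, 90, 18 and 38 counts in WT. In CPM this was 0.813 ± 0.826 in Flcn KO and 11.0 ± 6.51 in WT (SD, n = 4 each), a log2 ratio of -3.60 (SE 0.52; quasi-likelihood adjusted p = 9.85e-05). No Flcn KO library reached the filter level of 2.43 CPM, so this peak was tested only because it was open in WT. The called peaks at 97854792 and 97871603 reached that level in 3 of 4 Flcn KO libraries. The calls at 97860860, 97871603 and 97885543 held under every alternative in which the peak was tested.

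The next peak along the gene was weaker. At 97919795 to 97920115, 33.7 kb beyond the last called peak, the table holds 8, 2, 2 and 0 counts in Flcn KO replicates 1 to 4 and 12, 20, 8 and 20 counts in WT. It was below the filter on low counts and was not tested. With no filter its log2 fold change was -2.20 (edgeR adjusted p = 0.0608), so it was not called. It entered 5 of the fits that left out a library and was called in 1 of them, without Flcn KO replicate 1 (-3.09, adjusted p = 0.0147); in the other 4 the adjusted p ran up to 0.156. After it, the peak at 97926934 had a log2 ratio of -0.55 (SE 0.40) and overlapping groups. The 5 peaks from 97854792 to 97920115 form a stretch of 65.3 kb in which each mean in Flcn KO was under 50% of that in WT. The stretch was delimited after its values were seen.

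**Figure D2:**
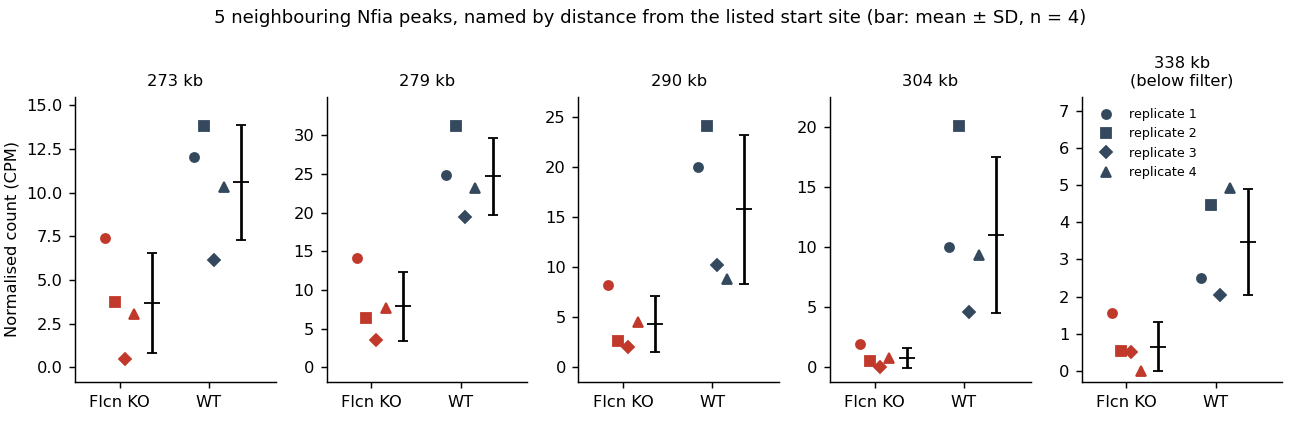
Normalised count in CPM at the 5 neighbouring Nfia peaks, 1 panel each, titled by the distance of the peak's centre from the listed start. Points are libraries with a symbol for each replicate number, Flcn KO left of WT, and bars are mean ± SD (n = 4). Flcn KO replicate 1 is the highest Flcn KO library in all 5 panels.

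The same libraries stood highest along the stretch. Flcn KO replicate 1 was the highest Flcn KO library at all 5 peaks, and WT replicate 2 was the highest WT library at 4 of them. Summed over the 5 peaks, the level was 33.2, 13.9, 6.46 and 16.0 CPM in Flcn KO replicates 1 to 4, against 69.3, 93.7, 42.3 and 56.6 CPM in WT. The sums did not overlap, but the stretch was delimited by its lower means in Flcn KO, so a lower sum follows from that choice. The spread within a group was large: Flcn KO replicate 1 held 2.74 times the mean of the other Flcn KO libraries. In the rest of the gene it held 0.981 times their mean, so its higher level was not a feature of Nfia as a whole. Without Flcn KO replicate 1, the log2 fold changes of the 4 called peaks were -2.17, -2.12, -2.42 and -4.72 in order of position. Without WT replicate 2 they were -1.32, -1.48, -1.54 and -3.15, and the first was no longer called.

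The rest of Nfia did not follow the stretch. Over the 13 peaks before it, from 97544059, the summed level was 379 ± 3.13 CPM in Flcn KO and 363 ± 22.6 CPM in WT (SD, n = 4 each), with overlapping groups. Their log2 fold changes ran from -0.48 to 0.73, with 9 of 13 above 0. Over the 14 peaks after it, to 98120523, the summed level was 180, 188, 179 and 188 CPM in Flcn KO replicates 1 to 4, against 133, 167, 178 and 157 CPM in WT. Here the Flcn KO libraries all lay above the WT libraries, by less than 1 CPM between the nearest pair. Their log2 fold changes ran from -0.55 to 1.25, with 9 of 14 above 0 and a median of 0.39, against a median of 0.00 over all tested peaks. None of the 14 was called by edgeR.

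**Figure D3:**
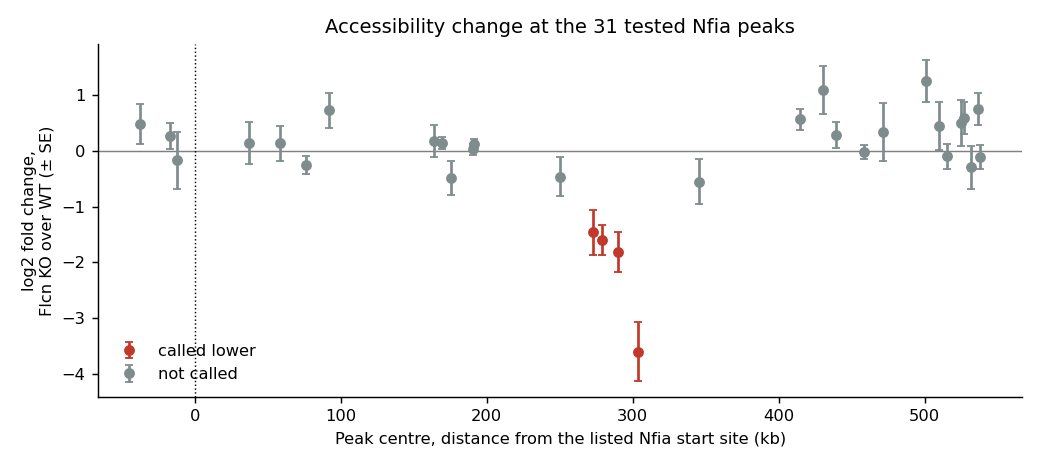
Log2 fold change (Flcn KO over WT, ± SE) of the 31 tested Nfia peaks against the distance of the peak's centre from the listed start, in kb. The 4 peaks called lower lie side by side, between -1.46 and -3.60, and the peaks on both sides of them lie between -0.55 and 1.25.

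The highest of the uncalled changes lay towards the far end of the gene. The peak at 98082520 to 98082895 had 5.47, 9.08, 9.45 and 7.62 CPM in Flcn KO replicates 1 to 4, against 0.830, 4.46, 3.57 and 4.43 CPM in WT. The groups did not overlap, and the log2 ratio was 1.25 (SE 0.38; quasi-likelihood adjusted p = 0.0712). Leaving out 1 library gave 0.91 to 1.44, with a call in 1 of 8 fits, without Flcn KO replicate 1 (adjusted p = 0.0242), and an adjusted p of up to 0.242 in the others. The next highest, at 98012162 to 98012570, averaged 5.17 CPM in Flcn KO and 2.48 CPM in WT, with overlapping groups. Its log2 ratio was 1.10 (SE 0.43, quasi-likelihood adjusted p = 0.217). At 98118588 to 98119101, across the gene's far end, the level was 10.4 ± 2.11 CPM in Flcn KO and 6.16 ± 1.76 CPM in WT (SD, n = 4 each), with a log2 ratio of 0.75 (SE 0.28, adjusted p = 0.196). The peak at 97995848 to 97996647, the broadest of the family at 800 bp, had 28.0 CPM in Flcn KO and 19.1 CPM in WT on average (0.57, SE 0.19, adjusted p = 0.119), with overlapping groups. Leaving out 1 library gave a call in 1 of 8 fits, without Flcn KO replicate 3 (adjusted p = 0.0498), and an adjusted p of up to 0.310 in the others. The peak at 97673753, before the stretch, had a log2 ratio of 0.73 (SE 0.32, adjusted p = 0.303), and was called in 1 of 8 such fits, without WT replicate 3 (1.24, adjusted p = 0.0342), with an adjusted p of up to 0.570 in the others. Nearest the listed start, the peak at 97569416 had 2.75 ± 2.08 CPM in Flcn KO and 3.19 ± 1.57 CPM in WT (-0.17, SE 0.51).

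Summed over all 32 peaks, Nfia was nearly level between genotypes. The sums were 588, 582, 566 and 585 CPM in Flcn KO replicates 1 to 4, against 582, 595, 603 and 570 CPM in WT. The means were 580 ± 10.1 CPM in Flcn KO and 588 ± 14.3 CPM in WT (SD, n = 4 each). The difference of -7.23 CPM was smaller than the spread between replicates. The stretch made up 3.00% of the Nfia sum in Flcn KO and 11.1% in WT. The sum over the other 27 peaks was 563 ± 7.07 CPM in Flcn KO and 522 ± 26.2 CPM in WT, with overlapping groups. The lower level at the stretch does not show in the sum over the gene.

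**Figure D4:**
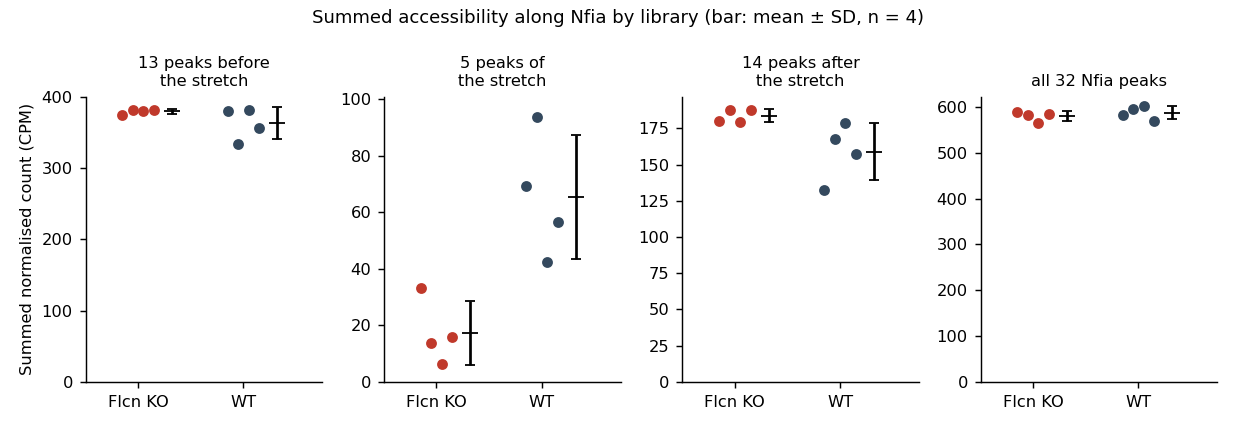
Summed normalised count in CPM over the Nfia peaks before the stretch, in it, after it, and over all 32 peaks, by library, with Flcn KO left of WT and bars for mean ± SD (n = 4). The stretch averages 17.4 CPM in Flcn KO and 65.5 CPM in WT, while the sum over all peaks is 580 CPM in Flcn KO and 588 CPM in WT.

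The only Nfib peak, at 82513134 to 82513465, lay 6.38 kb outside the gene. It had 5.87, 1.60, 0.497 and 2.29 CPM in Flcn KO replicates 1 to 4, against 3.32, 5.35, 2.55 and 1.48 CPM in WT. The groups overlapped throughout, and at 30, 6, 2 and 6 counts in Flcn KO and 16, 24, 10 and 6 in WT the depth could show only a large difference (log2 ratio -0.26 with SE 0.53; quasi-likelihood adjusted p = 0.904).

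At Nfic the strongest peak, at 81432872 to 81433291, had 41.8, 55.0, 44.8 and 48.0 CPM in Flcn KO replicates 1 to 4, against 39.4, 40.6, 45.4 and 54.1 CPM in WT. The genotypes spanned nearly the same range (log2 ratio 0.08 with SE 0.14; quasi-likelihood adjusted p = 0.883). A peak 748 bp further upstream, at 81434040, had 13.2 CPM in Flcn KO and 16.1 CPM in WT on average, with overlapping groups. Inside the gene, the peak at 81407580 to 81407930 had the largest fold change of Nfic, with 5.14 ± 1.94 CPM in Flcn KO and 7.98 ± 3.18 CPM in WT (SD, n = 4 each; -0.61, SE 0.33, adjusted p = 0.457). The peak at 81408827 differed by 0.20 (SE 0.40). The 2 untested peaks, at 81401721 and 81417042, held at most 14 counts in any library. Summed over its 6 peaks, Nfic had 73.5 ± 7.40 CPM in Flcn KO and 75.9 ± 7.84 CPM in WT.

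At Nfix the strongest peak, at 84722810 to 84723554, had 23.1, 19.2, 20.9 and 22.9 CPM in Flcn KO replicates 1 to 4, against 24.5, 18.7, 15.3 and 21.6 CPM in WT. The Flcn KO libraries lay within the range of the WT libraries (log2 ratio 0.10 with SE 0.19; quasi-likelihood adjusted p = 0.896). The peak nearest one end of the gene, at 84709191, had 10.6 ± 1.86 CPM in Flcn KO and 10.7 ± 1.76 CPM in WT (SD, n = 4 each), a log2 ratio of -0.0019 with SE 0.25. The peaks at 84737556 and 84800183 differed by -0.19 (SE 0.28) and 0.29 (SE 0.39). Of the untested peaks, that at 84799437 held 14, 8, 8 and 6 counts in Flcn KO replicates 1 to 4 and 6, 2, 4 and 2 in WT, with no overlap in CPM but too few counts for a test. Summed over its 6 peaks, Nfix had 47.8 ± 2.88 CPM in Flcn KO and 44.8 ± 2.62 CPM in WT, with overlapping groups.

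**Figure D5:**
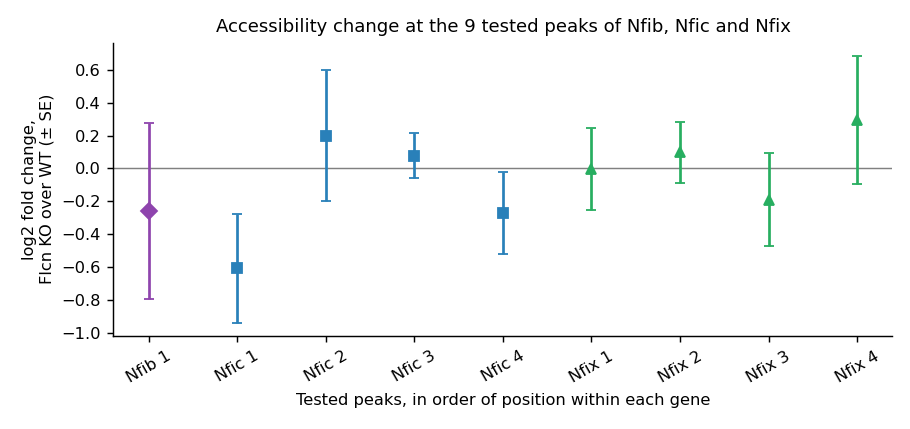
Log2 fold change (Flcn KO over WT, ± SE) of the 9 tested peaks of Nfib, Nfic and Nfix, in order of position within each gene. All lie between -0.61 and 0.29, and none was called.

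The peaks of neighbouring genes were counted as well, to be read beside the 2.37% called over all tested peaks. Within 500 kb of Nfia lie Tm2d1 and Patj, with 7 tested peaks, of which 1 was called higher and 0 lower. That peak, at 98431968 to 98432198 inside Patj, a gene for a cell polarity scaffold, had 11.7, 17.1, 24.9 and 16.8 CPM in Flcn KO replicates 1 to 4, against 3.74, 6.69, 9.18 and 6.89 CPM in WT (log2 ratio 1.42 with SE 0.27; quasi-likelihood adjusted p = 0.00135). The groups did not overlap, and the direction is opposite to that of the Nfia stretch. Near Nfib 0 of 5 tested peaks were called, near Nfic 0 of 59 and near Nfix 0 of 55, with 1, 2 and 4 peaks passing an unadjusted threshold of 0.05. DESeq2 and limma-voom also called 0 there. At that share, counts over so few peaks do not set the neighbours apart. Beyond the 50 kb limit, peaks 89.2 and 91.1 kb from Nfia had log2 ratios of 0.97 (SE 0.44) and 0.34 (SE 0.34), against 0.48 (SE 0.36) for the outermost member, 33.6 kb from the gene. The 2 peaks 73.0 and 118 kb from Nfib were too low to test.

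Genes known as partners or targets of nuclear factor I proteins in brain, blood or muscle had about the share of lower calls seen over all tested peaks. Of the 17 genes on that list, 13 had tested peaks, and of these 87 peaks 1 was called lower and 0 higher, against 1.02% lower and 1.35% higher over all tested peaks. The median log2 fold change was 0.11. Without adjustment, 8 were higher and 3 lower at p below 0.05, against 6.87% and 5.99% over all tested peaks, and DESeq2 and limma-voom called the same numbers as edgeR. The list shares Spi1 and Csf1r with the myeloid markers and Hlf with the progenitor markers given below. The called peak lies inside Ezh2, which encodes the histone H3K27 methyltransferase of Polycomb repressive complexes and is known as a target of Nfib in the developing brain. At 47560858 to 47561256 of chromosome 6 it had 3.91, 1.07, 1.49 and 3.81 CPM in Flcn KO replicates 1 to 4, against 8.72, 7.58, 9.69 and 11.3 CPM in WT (log2 ratio -1.85 with SE 0.37; quasi-likelihood adjusted p = 0.00197). The groups did not overlap.

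Most peaks called in either direction had no called neighbour. Across the genome, 432 peaks called lower stood alone, 20 runs held 2, 3 runs held 3 and 2 runs held 4 neighbouring tested peaks. In the higher direction 504 stood alone, 44 runs held 2, 10 held 3, 4 held 4 and 1 held 6. The lower runs of 4 were the one in Nfia, over 31.3 kb, and one of 53.1 kb around Galnt9, which encodes an enzyme of mucin-type glycosylation. By number of peaks called lower, Nfia and Arhgap10, which encodes a GTPase-activating protein, had the most with 4 each, of 31 and 21 tested. As a share of tested peaks this was 12.9% at Nfia and 19.0% at Arhgap10. Genes with 3 peaks called lower had larger shares: 75% at Galnt9 and Ttc39c, 42.9% at Slc24a3 and 33.3% at Alcam. As the family was chosen with these calls known, nothing is read from the place of Nfia. Over the 8 libraries, the genes whose summed level, as log2, was most correlated with that of Nfia, among 744 others with at least 10 tested peaks, were Ptch1 (Pearson r = 0.71), Slc2a3 (0.69), Pcgf5 (0.69), Fry (0.69) and Evi5 (0.68). They are the highest of 744 values, each over only 8 libraries, and were not tested against what such a choice gives by chance. These libraries also differ in depth, and the correlations are given as a description.

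Markers of other cells were compared because several of these genes are active in blood progenitors and in stroma. The summed level of 7 progenitor genes (Gata1, Klf1, Epor, Kit, Gata2, Meis1 and Hlf), all of which had peaks, was 146 to 175 CPM in Flcn KO and 112 to 131 CPM in WT, without overlap. Of their 18 tested peaks 1 was called higher, near Gata1, with 21.6 ± 5.01 CPM in Flcn KO and 10.5 ± 1.45 CPM in WT (SD, n = 4 each). The summed progenitor level was thus higher in the Flcn KO libraries, and whether these peaks come from progenitor cells was not tested. B cell markers summed to 74.0 to 97.2 CPM in Flcn KO and 65.5 to 98.4 CPM in WT, with no peak at Cd79b or Ms4a1. Myeloid markers summed to 44.6 to 57.9 CPM in Flcn KO and 53.1 to 73.1 CPM in WT, with no peak at Lyz2, Csf1r, Cd68 or Adgre1. Stromal and endothelial markers summed to 149 to 166 CPM in Flcn KO and 144 to 170 CPM in WT, with no peak at Col1a2, Cdh5 or Kdr. NK cell markers summed to 266 to 348 CPM in Flcn KO and 250 to 286 CPM in WT, and the CD8 genes to 21.9 to 47.2 CPM in Flcn KO and 26.1 to 37.8 CPM in WT. The groups overlapped on these last 5 lists. Of 79 tested Treg peaks 3 were called higher and 1 lower, and of 11 B cell peaks 0 higher and 1 lower. Of 14 NK cell peaks 1 was called higher and 1 lower. For the 9 myeloid, 16 stromal and 4 CD8 peaks the count called was 0 in both directions, also by DESeq2 and limma-voom. Over all tested peaks 1.35% were called higher and 1.02% lower. DESeq2 gave the same counts as edgeR on the other lists, but limma-voom did not make the B cell and NK cell lower calls. Without adjustment, 12 Treg peaks were higher and 4 lower, and 5 progenitor peaks higher and 1 lower. The B cell list had 2 higher and 1 lower, and the NK cell list 3 higher and 1 lower. Of the rest, 1 myeloid peak was lower, 1 stromal peak higher and 1 lower. The shares over all tested peaks were 6.87% and 5.99%. The part of other cells in the Nfia result was not tested, and in these sorted bulk samples fewer cells with an open site and less opening per cell cannot be told apart.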

How the data were processed

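Accessibility was measured by ATAC-seq in 8 libraries. The authors deposited raw counts per peak and library, not normalized, over 57199 shared peaks in mm10 coordinates, whose starts were converted to count from 1. The submitters' processing notes name MACS2 2.1.1, bedtools 2.25.0, SAMtools 1.9, Picard 2.9.4, BWA 0.7.16 and Trimmomatic 0.36. What each did, how duplicates and the transposase shift were handled, and whether peaks come from pooled libraries is not given in the sources used here. Between 88.7% and 92.5% of a library's counts above 0 were even, as happens when each end of a read pair is counted, so errors are taken from the spread between libraries. The labels call the libraries biological replicates. The chi-square per peak between libraries of a group was 2.18 to 3.56, and no library was a copy of another.

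Peaks were assigned to the nearest of 21887 protein-coding gene spans of GRCm38.p6 (RefSeq). Start windows came from a RefSeq table that matched Nfia, Nfic and Nfix; Nfib was not matched. Peaks were filtered with filterByExpr (minimum count 10), scaled by TMM and tested over the whole table by the quasi-likelihood method of edgeR 4.0.16 (R 4.3.3; robust, genotype as the only term), with Benjamini-Hochberg adjustment over the 47859 tested peaks. The SE was derived from the fold change and its F statistic. The fit was tested on simulated data. Alternatives were DESeq2 size factors, library size alone, no filter, a minimum count of 30, DESeq2 (1.42.0), limma-voom (3.58.1), counts divided by 2, the replicate number as a block, only peaks inside genes, and leaving out each library.

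The members, gene lists and tests were chosen with earlier results of these data known; 2 genes of the lists are not reported here. The peaks named are those called, the strongest of each gene, those nearest the gene ends and those with the largest change in each direction; others, such as the neighbours of the called peaks and those called in an alternative only, were chosen after their values were seen. Depth was compared by a two-sided exact permutation test of the group means (p = 0.486, where 0.029 is the smallest p possible with 4 libraries a group).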

Additional observations from a re-analysis of the deposited data

How the results depend on the processing

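The calls at the Nfia peaks at 97860860, 97871603 and 97885543 held under every alternative in which the peak was tested, and that at 97854792 also ended with library size alone (edgeR adjusted p = 0.0588) and with the stricter filter (0.0605). The count of member peaks called lower was 4, 3 with library size alone, 3 with halved counts and 2 with the stricter filter; the last 2 alternatives removed the peak at 97885543 from testing. Leaving out 1 library it ran from 3 to 5. The count called higher was 0, ran from 0 to 1 when 1 library was left out, and was 1 with the replicate number as a block, at the Nfia peak at 98082520 (log2 fold change 1.35, adjusted p = 0.0270). The correlation of same-numbered libraries' deviations from their group means ran from -0.05 to 0.08. Between libraries with different numbers it ran from -0.15 to 0.17. With 4 libraries a group these values do not settle whether the replicate numbers pair the samples. With the block all 4 lower calls were made, that at 97854792 with an edgeR adjusted p of 0.00225. Over all tested peaks the block gave 736 higher and 639 lower calls. Over all tested peaks, 644 were called higher (420 to 863 when 1 library was left out) and 489 lower (217 to 934, and 282 with the stricter filter). The lowest of these were without Flcn KO replicate 3 and without WT replicate 2, and the highest count of lower calls was without Flcn KO replicate 1. The difference between genotypes in the summed level of each gene moved by less than the spread between replicates under the alternatives run. The levels themselves moved by more: Nfia had 637 CPM in Flcn KO and 641 CPM in WT with the stricter filter and 608 and 614 CPM with halved counts, and Nfic had 12.9 CPM in Flcn KO and 14.9 CPM in WT over peaks inside the gene. The difference ran from -13.4 to -2.47 CPM for Nfia, -1.70 to 0.106 for Nfib, -5.80 to 0.547 for Nfic and 2.07 to 4.46 for Nfix when 1 library was left out. Directions that turned were all of uncalled peaks: Nfia at 97569416 (-0.73 to 0.20 when 1 library was left out, with 0.06 and 0.09 among the values), Nfib at 82513134 (-1.18 to 0.10, with 0.09), Nfix at 84722810 (-0.010 to 0.21) and Nfix at 84709191 (-0.11 to 0.089, and 0.0052 with the stricter filter, 0.0051 with halved counts and 0.016 by limma-voom). Low counts limit what could be seen at Nfib, with 2 to 30 per library, and at the 5 untested peaks, with 0 to 20. The mm10 sequence under the peaks and exon positions were not used here.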
